A study of Homo sapiens with 7 samples.

Results

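The genes described here code for collagen chains and were chosen by name: every row whose symbol is COL, a number, A, a number and nothing more, such as COL1A1. The table held 44 such genes among 23710. Of these 44, 35 were above the table's floor of 5 normalized counts in at least 1 library, and 18 had a mean of at least 50 normalized counts over the 4 libraries, the minimum set for a comparison. All libraries came from SNU398, an established human hepatocellular carcinoma line, and differed only in the peptide given at 30 µM for 8 hours. PEN is penetratin, a cell-penetrating peptide that served as the carrier alone. As the study is known, the peptide PEN-WT adds to it the stretch of the transcription factor SALL4 that binds the chromatin protein RBBP4. PEN-MUT carries a mutated form of that stretch as a control, and PEN-FFW an engineered variant. Each peptide was represented by 1 library, no untreated library was analysed, and the other 3 of the 7 samples, from chromatin immunoprecipitation, are not analysed here.

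Collagens are secreted structural proteins made of chains with long runs of the triplet glycine-X-Y, which wind in threes into a triple helix. Fibrillar chains build the cables of connective tissue, type IV chains form the mesh of basement membranes, and other types decorate fibrils, anchor membranes to the stroma or span the plasma membrane. In liver, stellate cells and fibroblasts are the main producers of types I and III, and hepatocytes make little.

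Reads in genes above the floor ranged from 27347377 (PEN-FFW) to 40717633 (PEN-WT) per library. A value at the floor stands for 0 to 5 reads, or up to 6 in PEN-WT. Where 4 values follow a gene, they are given in the order PEN, PEN-MUT, PEN-WT, PEN-FFW. The deposited scaling left the median gene of PEN-FFW at -0.27 (log2) from PEN, against 0.02 for PEN-MUT and 0.03 for PEN-WT. Differences below are therefore log2(normalized count + 10) of one library minus another, relative to the median of the 12578 genes with a mean of at least 50, and that scale understates the fold of low genes. The ± is the standard error from counting reads alone. With 1 library per peptide there is no replicate check, no test and no p-value, and variation between cultures is unknown. Defining hepatocyte genes were mostly missing: APOB, TTR, HNF4A, SERPINA1, FGB, KRT8 and KRT18 were at the floor in all 4 libraries, while ALB (83.1 to 157 normalized counts) and GPC3 (998 to 1281) were present. Of 12 markers of stellate cells and fibroblasts, 11 were above the floor somewhere and 8 had a mean of at least 50. Their summed level was between 18810 and 27905 normalized counts, mostly LUM (10807 to 17486), while DES was at the floor throughout. The defining endothelial genes PECAM1, CDH5, VWF and KDR were at the floor. STAB2, another endothelial marker, was scarce but above the floor in all 4 libraries, with 16.795, 10, 18.63 and 23.08 normalized counts. Of 5 leukocyte markers, CD14, CD3E and MS4A1 were at the floor, but 2 had a mean of at least 50 normalized counts. These included PTPRC, the pan-leukocyte phosphatase, with 298 to 373 normalized counts. The summed level of the 5 was between 523 and 656. In bulk RNA, a change in the number of cells that make a collagen and a change in RNA per cell cannot be told apart.

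The collagens of these cells were dominated by the fibrillar COL3A1. It took 0.241%, 0.249%, 0.243% and 0.289% of all reads, and was the 12th most abundant gene of the table in PEN, PEN-MUT and PEN-WT and the 8th in PEN-FFW. Together the 44 genes held 0.424%, 0.434%, 0.433% and 0.525% of reads, so the share was highest in PEN-FFW. COL3A1 supplied 55.0% to 57.4% of the collagen reads, and with COL5A2, COL11A1 and COL21A1 between 91.2% and 92.6%. In reads per kilobase of transcript, scaled to each library's reads in genes (RPKM), COL3A1 stood at 439 to 526, COL5A2 at 127 to 166, COL21A1 at 56.5 to 60.6 and COL11A1 at 47.2 to 71.3. The ranges of COL21A1 and COL11A1 overlapped, so their order was not fixed across libraries. Next came COL6A2 (11.8 to 18.4) and COL18A1 (8.38 to 13.5). COL6A1, COL12A1, COL4A5, COL26A1, COL4A1 and COL4A2 followed with overlapping ranges between 3.55 and 8.46, then COL7A1 (1.36 to 3.34). The other five of the 18, COL1A1, COL2A1, COL4A6, COL11A2 and COL27A1, lay between 0.296 and 1.48.

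**Figure D1:**
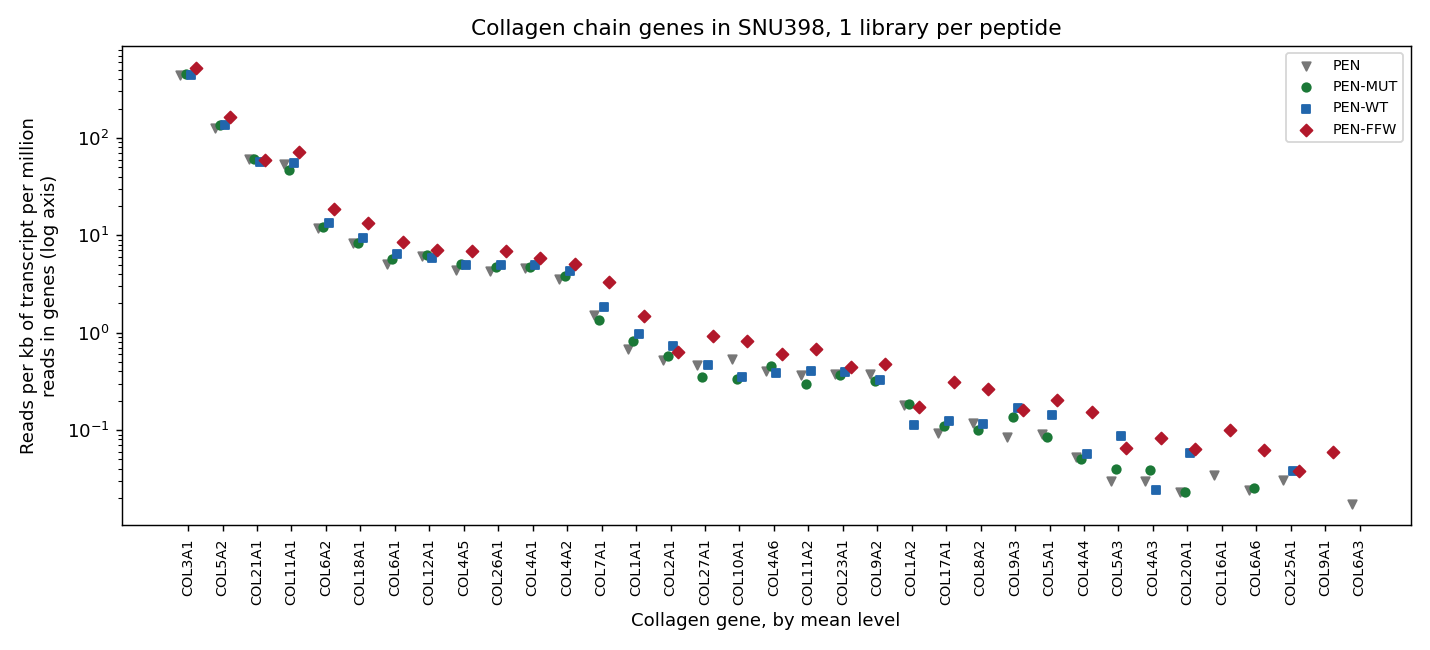
Level of the collagen genes above the floor in at least 1 library, in RPKM over the canonical transcript (log axis), for PEN (triangles), PEN-MUT (circles), PEN-WT (squares) and PEN-FFW (diamonds), 1 library each; a library at the floor has no symbol. COL3A1, at 439 to 526, lies far above the rest, and most of the genes have PEN-FFW as their highest symbol.

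Relative to the median gene, the PEN-FFW library held more RNA of nearly every collagen than the carrier library, while as deposited COL2A1, COL3A1, COL4A1, COL12A1 and COL21A1 were below it. Of the 18 genes, 17 were above the median gene and 8 were at least 1.5-fold higher (44.4%, against 7.24% of all 12578 genes), and 0 were at least 1.5-fold lower (0.437%). The 8 were COL7A1, COL1A1, COL27A1, COL11A2, COL6A1, COL18A1, COL26A1 and COL4A5, and COL6A2 missed the threshold narrowly at 0.58 ± 0.05. The median of the 18 was 0.54, where that of all genes is 0 by construction. On the values as deposited, without the shift to the median gene, 13 of 18 were above 0, 3 were at least 1.5-fold higher and 0 lower (3.24% and 6.07% of all genes), and the median was 0.27. At 2-fold, COL1A1 and COL7A1 remained, 2 of 18 against 2.08% of all genes. The 18 genes had at least 61 normalized counts in every library, so none was kept through a high value in PEN-FFW alone. Against PEN-MUT 17 of 18 were again above the median gene, with a median of 0.45, 5 were at least 1.5-fold higher (7.24% of all genes) and 0 lower (0.0875%). These were COL27A1, COL7A1, COL11A2, COL1A1 and COL18A1, of which the first 3 were at least 2-fold higher (2.49% of all genes). As deposited, 12 of 18 were above 0, and 3 were at least 1.5-fold higher and 0 lower (3.29% and 4.4% of all genes). The comparisons with PEN and with PEN-MUT share the PEN-FFW library.

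**Figure D2:**
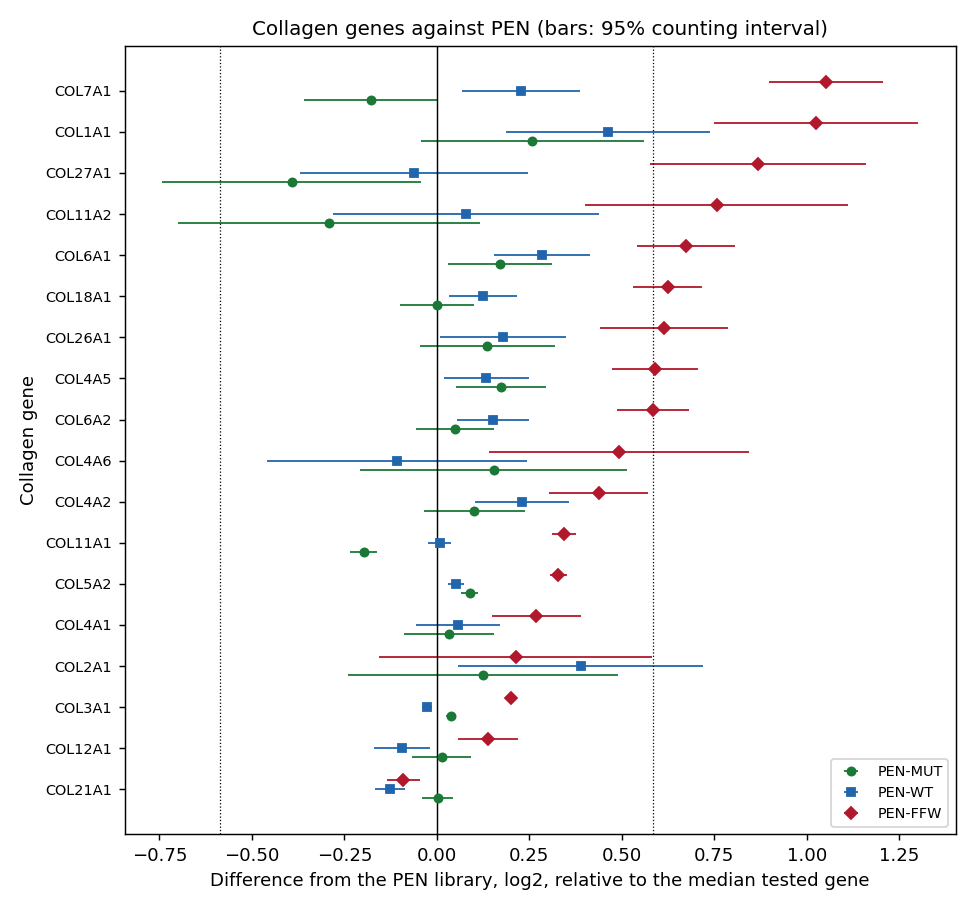
Difference of PEN-MUT (circles), PEN-WT (squares) and PEN-FFW (diamonds) from PEN for 18 collagen genes, in log2 units from the median gene; bars give the 95% counting interval, each peptide has 1 library, and dotted lines mark 1.5-fold. PEN-FFW lies right of 0 for all but COL21A1 on this scale (all but 5 genes as deposited) and reaches 1.05 for COL7A1, while PEN-WT and PEN-MUT stay inside the dotted lines.

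Among fibrillar chains, the abundant and the scarce differed by unlike amounts. COL3A1 (chromosome 2, 189839099 to 189877472, plus strand, GRCh37 here and below), whose product forms a homotrimer in distensible tissues, had 76546, 79779, 76726 and 72895 normalized counts. Its difference between PEN-FFW and PEN was 0.20 ± 0.01 relative to the median gene but -0.07 as deposited, so the direction depends on the scaling. COL5A2, its neighbour on the minus strand (189896624 to 190090038), codes for the α2 chain of type V, which sits inside fibrils and limits their width. It had 27481, 29659, 29108 and 28611 normalized counts, a difference of 0.33 ± 0.01 for PEN-FFW (0.06 as deposited). The 2 neighbours kept a nearly constant proportion, with COL5A2 at 0.289, 0.299, 0.305 and 0.315 of COL3A1 per kilobase. COL5A1, the usual partner chain in type V, was scarce at 24.4, 23.0, 38.0 and 43.4 normalized counts. COL11A1, whose product can also assemble with α2(V), had 12502, 11059, 12835 and 13155 normalized counts, lowest in PEN-MUT, with PEN-FFW at 0.34 ± 0.02 against PEN and 0.55 ± 0.02 against PEN-MUT (0.07 and 0.25 as deposited).

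COL1A1 (chromosome 17, 48261462 to 48278993, minus strand), the major chain of type I, had 127, 156, 182 and 221 normalized counts. PEN was lowest and PEN-FFW highest, with 2.03-fold between them relative to the median gene (1.02 ± 0.14) and a difference of 0.77 ± 0.14 from PEN-MUT. COL1A2, which supplies the third chain of the type I helix and fell short of the 50-count minimum, had 29.4, 30.0, 17.9 and 22.2. The counting interval of its ratio between PEN-FFW and PEN ran from 0.517 to 1.57, so no difference was detectable at this depth. Per kilobase, COL1A1 exceeded COL1A2 by 3.70-, 4.46-, 8.76- and 8.54-fold. COL27A1 (chromosome 9, 116917817 to 117074791, plus strand), a fibrillar chain of developing cartilage, had 117, 88.0, 114 and 182 normalized counts. PEN-MUT was lowest and PEN-FFW highest, 1.83-fold above PEN (0.87 ± 0.15) and 2.41-fold above PEN-MUT (1.27 ± 0.17). COL11A2, a cartilage chain, had 75.6, 61.0, 82.3 and 110 normalized counts, again lowest in PEN-MUT and highest in PEN-FFW, with 0.76 ± 0.18 against PEN and 1.05 ± 0.20 against PEN-MUT. COL2A1, the main chain of cartilage fibrils, was different in having its highest value in PEN-WT: 84.0, 94.0, 116 and 80.3 normalized counts. Its PEN-FFW library stood at 0.21 ± 0.19 from PEN, within counting error.

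The basement membrane chains form 3 pairs that lie head to head in the genome. COL4A1 and COL4A2, on chromosome 13 (110801310 to 110959504, minus strand, and 110958159 to 111165556, plus strand), code for the chains of the most widespread type IV helix and are known to share a bidirectional promoter. COL4A1 had 956, 992, 1015 and 955 normalized counts, and COL4A2 had 726, 791, 871 and 816. Their GRCh37 gene models overlap at the starts on opposite strands, and since the strand setting of the counts is unknown, reads there cannot be assigned to one or the other. In PEN-FFW the pair stood at 0.27 ± 0.06 and 0.44 ± 0.07 from PEN (-0.0016 and 0.17 as deposited). The ratio of COL4A1 to COL4A2 per kilobase went from 1.30 in PEN to 1.24, 1.15 and 1.15, nearer to 1 than the proportion of 2 to 1 in the helix. RefSeq places the starts of the pair 127 bases apart in GRCh38.p14, and the 126 bases between them (chr13:110307158-110307283, plus strand of that build, GC content 80.2%) are shown because both genes are read outward from them. Capitals mark matches to the GC box GGGCGG and the CCAAT box CCAAT, searched on both strands, which do not overlap each other:
COL4A1-COL4A2 spacer: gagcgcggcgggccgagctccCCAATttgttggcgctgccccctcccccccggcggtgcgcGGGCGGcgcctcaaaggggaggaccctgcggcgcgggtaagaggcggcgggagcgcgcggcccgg
Each was matched 1 time, and the TATA box TATAAA 0 times. Over the 126 bases before the start of 35116 RefSeq promoters, 34.6% held a GC box, 21.1% a CCAAT box and 5.87% a TATA box on either strand, so the spacer's matches are common ones. A match describes the letters and says nothing of a factor bound there.

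COL4A5 and COL4A6, on the X chromosome (107683068 to 107940775, plus strand, and 107398837 to 107682727, minus strand), code for chains found together in the basement membranes of skin and smooth muscle, and COL4A5 is mutated in Alport syndrome. In RefSeq (GRCh38.p14) the nearest listed starts of the pair lie 380 bases apart. COL4A5 had 919, 1053, 1031 and 1149 normalized counts, lowest in PEN and highest in PEN-FFW, which was 1.51-fold above PEN (0.59 ± 0.06) and at 0.42 ± 0.06 from PEN-MUT. COL4A6 was much scarcer, with 85.7, 98.0, 80.7 and 102 normalized counts and 0.49 ± 0.18 in PEN-FFW against PEN. Per kilobase COL4A5 exceeded COL4A6 by 11 to 13.1-fold, so genes that start close to each other differed widely in level. The third pair was scarce: COL4A3 had 7.56, 10.0, 6.21 and 16.6 normalized counts and COL4A4 had 16.8, 16.0, 17.9 and 38.8. Both were highest in PEN-FFW, and the ratio to PEN was 2.78 for COL4A4 (counting interval 1.60 to 5.01) and 2.65 for COL4A3 (1.13 to 6.70). These ratios are relative to the median gene, and COL4A3 and COL4A4 were singled out after their values were seen, as were the other genes below 50 counts.

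Type VI collagen builds beaded filaments around cells. COL6A1 and COL6A2, neighbours on the plus strand of chromosome 21 (47401684 to 47424964 and 47518026 to 47552762), were lowest in PEN and highest in PEN-FFW. COL6A1 had 676, 774, 844 and 897 normalized counts and COL6A2 had 1288, 1353, 1463 and 1604. PEN-FFW stood at 0.67 ± 0.07 and 0.58 ± 0.05 from PEN and at 0.51 ± 0.07 and 0.54 ± 0.05 from PEN-MUT. COL6A3, the chain that completes the common type VI helix, had 7 reads in PEN and was at the floor in the other three libraries, as was its relative COL6A5 in all 4. COL6A6 had 15 reads in PEN-FFW and at most 8 in the others above the floor. Thus 2 of the 5 type VI genes carried almost all the reads of the type, at a ratio of COL6A1 to COL6A2 of 0.430 to 0.473 per kilobase.

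COL7A1 (chromosome 3, 48601506 to 48632762, minus strand), the chain of the anchoring fibrils that hold epithelia to the stroma, was the farthest from PEN in PEN-FFW among the 18 retained collagens. It had 449, 402, 539 and 779 normalized counts, 2.07-fold above PEN (1.05 ± 0.08) and 2.36-fold above PEN-MUT (1.24 ± 0.09). As deposited, these differences were 0.78 and 0.94. COL18A1 (chromosome 21, 46825080 to 46933634, plus strand), a basement membrane proteoglycan whose end fragment is endostatin, had 1439, 1460, 1605 and 1841 normalized counts with PEN-FFW 0.62 ± 0.05 above PEN and 0.63 ± 0.05 above PEN-MUT on the log2 scale (0.35 and 0.33 as deposited). Genes on the opposite strand overlap COL18A1 as well. Of them COL18A1-AS1 had 13.4, 10.0, 25.6 and 69.2 normalized counts, also highest in PEN-FFW, and SLC19A1 had 1373, 1091, 1206 and 988. COL26A1 (chromosome 7, 101006156 to 101202304, plus strand), a short chain first described in gonads, had 402, 450, 467 and 513 normalized counts and stood at 0.61 ± 0.09 from PEN.

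The 2 retained collagens of the kind that attaches to the surface of fibrils had the lowest PEN-FFW differences from PEN. COL21A1 (chromosome 6, 55921388 to 56258892, minus strand) had 7966, 8097, 7449 and 6202 normalized counts. It was the one gene of the 18 below the median gene in PEN-FFW, at -0.09 ± 0.02 from both PEN and PEN-MUT (-0.36 and -0.38 as deposited). COL12A1 (chromosome 6, 75794042 to 75915983, minus strand), a stress-bearing tissue chain, had 2275, 2331, 2177 and 2075 normalized counts. Its PEN-FFW difference from PEN was 0.14 ± 0.04 relative to the median gene and -0.13 as deposited, so only the first puts it above PEN.

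Of the 26 genes below the minimum, 9 were at the floor in all 4 libraries: COL6A5, COL8A1, COL13A1, COL14A1, COL15A1, COL19A1, COL22A1, COL24A1 and COL28A1. The other 17 were COL1A2, COL4A3, COL4A4, COL5A1, COL5A3, COL6A3, COL6A6, COL8A2, COL9A1, COL9A2, COL9A3, COL10A1, COL16A1, COL17A1, COL20A1, COL23A1 and COL25A1. COL10A1, the chain of hypertrophic cartilage, lay just under the minimum with a mean of 49.0, and COL11A2, at 82.2, was the lowest gene above it. COL10A1 had 56.3, 35.0, 36.5 and 68.3 normalized counts, lower in PEN-MUT and PEN-WT than in PEN and PEN-FFW. Its PEN-FFW ratio was 2.4 to PEN-MUT (counting interval 1.59 to 3.70) and 1.46 to PEN (1.04 to 2.07). COL17A1, a transmembrane collagen of hemidesmosomes, had 16.8, 20, 21.7 and 44.3 normalized counts, a PEN-FFW ratio to PEN of 3.18 (1.85 to 5.66). COL8A2, a network chain of the cornea, had 17.6, 15, 17.1 and 31.4 (2.15, 1.21 to 3.89). For COL23A1, at 32.3 to 36.5 normalized counts, and COL9A2, at 29.0 to 34.4, the intervals against PEN (0.700 to 1.82 and 0.746 to 1.91) included 1. Over all 35 genes above the floor somewhere, 13 had PEN-FFW 1.5-fold or more above PEN (10.7% of all 16160 such genes) and 0 had it as far below.

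PEN-WT, at the same dose and time, lay closer to PEN. Of the 18 genes, 13 were above the median gene against PEN, with a median of 0.10, and 0 were at least 1.5-fold higher or lower (0.827% and 0.374% of all genes). With genes of equal GC content as the baseline the median was 0.026, and with a least-squares baseline (in GC content, transcript length and abundance) 0.0125. The largest difference was that of COL1A1 at 0.46 ± 0.14, followed by COL2A1 (0.39 ± 0.17), COL6A1 (0.29 ± 0.07), COL4A2 (0.23 ± 0.06) and COL7A1 (0.23 ± 0.08). At the other end were COL21A1 (-0.13 ± 0.02), COL4A6 (-0.11 ± 0.18) and COL12A1 (-0.09 ± 0.04). Against PEN-MUT 12 of 18 were above the median gene, with a median of 0.12 and again 0 past 1.5-fold in either direction (0.898% and 0.0159% of all genes). Those baselines gave medians of 0.012 and -0.034 there. COL7A1 stood at 0.42 ± 0.09 there and COL11A1 at 0.21 ± 0.02.

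The 2 control peptides were close to each other in collagen RNA. In PEN-MUT against PEN, 14 of 18 genes were above the median gene with a median of 0.04, and 0 were past 1.5-fold in either direction (0.215% higher and 0.35% lower among all genes). COL27A1 (-0.39 ± 0.18), COL11A2 (-0.29 ± 0.21), COL11A1 (-0.20 ± 0.02) and COL7A1 (-0.18 ± 0.09) lay below PEN, and the intervals of COL11A2 and COL7A1 reached 0. COL1A1 lay above it at 0.26 ± 0.15, within counting error.

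PEN-FFW and PEN-WT differ in the SALL4-derived part of the peptide. Relative to the median gene, 17 of 18 collagens were higher in PEN-FFW, with a median of 0.41 (0.11 as deposited, with 11 of 18 above 0), and 4 were at least 1.5-fold higher (4.17% of all genes) and 0 lower (0.0318%). At 2-fold 0 of 18 remained (0.843% of all genes), and as deposited 1 was 1.5-fold higher and 0 lower (1.43% and 2.05%). The 4 were COL27A1 (0.93, 95% counting interval 0.64 to 1.22), COL7A1 (0.82, 0.68 to 0.97), COL11A2 (0.68, 0.34 to 1.02) and COL4A6 (0.60, 0.25 to 0.95). No difference was detectable for COL21A1 (-0.01 to 0.08) or COL2A1 (-0.52 to 0.17), and these intervals cover counting error only. All 6 pairs of libraries were compared, and pairs that share a library are not independent.

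The size of the PEN-FFW difference moved with the base composition of the transcripts and, inversely, with their abundance. Median GC content over the canonical transcripts of the 18 was 61.4% (44% for COL21A1 to 67.2% for COL18A1) and median length 6434 bases, against 48.3% and 3407 bases for all retained genes with an annotated transcript. Across the 18, the Spearman correlation of the difference from PEN with GC content was 0.04 in the PEN-MUT library and 0.66 and 0.65 in those of PEN-WT and PEN-FFW. Across all 12103 genes it was 0.089, 0.358 and 0.364. With the mean normalized count, the correlation of the PEN-FFW difference from PEN was -0.573 across the 18 and -0.375 across all 12103. The points share their libraries, so these values describe them and test nothing. Of the 10 genes of highest GC content, 61.3% or more, 8 lay at 0.58 or above in PEN-FFW, and COL4A2 and COL2A1 lay lower, while those under 50%, COL5A2, COL11A1, COL12A1 and COL21A1, lay between -0.09 and 0.34. COL4A5, at 50.8% GC and 0.59, was an exception.

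**Figure D3:**
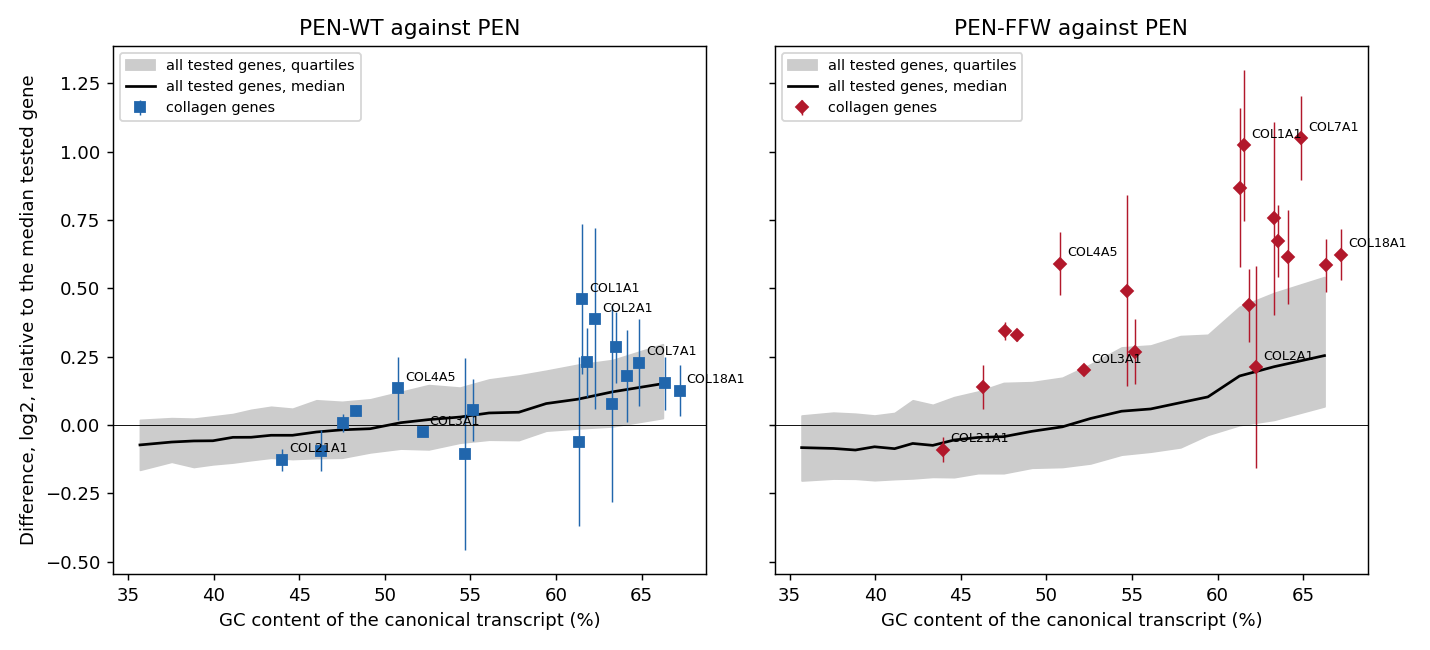
Difference from PEN (log2, relative to the median gene) plotted by transcript GC content (%) for 18 collagen genes in PEN-WT (squares, left) and PEN-FFW (diamonds, right), with 95% counting intervals; the line and shading give the median and quartiles of all genes with a mean of at least 50 normalized counts in 20 bins of GC content. The median of all genes climbs to 0.15 in PEN-WT and 0.25 in PEN-FFW in the bin of highest GC content, and most collagens lie above the shading in PEN-FFW.

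Glycine codons made up 9.17% (COL12A1) to 28.6% (COL4A1) of the codons in the 17 genes whose annotated reading frame was intact. Glycine is coded by GGN, and the share of its codons that end in G or C ran from 22.3% in COL3A1 and 27.3% in COL11A1 to 64.8% in COL18A1 and 65.4% in COL6A1. The Spearman correlation of that share with the PEN-FFW difference from PEN was 0.554 over the 17 genes, as a description. COL1A1, at 34.8% and a difference of 1.02, stood away from it. The first 63 coding bases of the longest unbroken glycine-X-Y run are shown for COL18A1, with a high share, and for the pair with the lowest shares, from GENCODE transcripts, with the glycine codon that opens each glycine-X-Y triplet in capitals:
COL18A1: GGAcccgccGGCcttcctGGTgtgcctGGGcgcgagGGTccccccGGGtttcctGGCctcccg
COL11A1: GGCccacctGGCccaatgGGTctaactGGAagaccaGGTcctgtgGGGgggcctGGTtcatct
COL3A1: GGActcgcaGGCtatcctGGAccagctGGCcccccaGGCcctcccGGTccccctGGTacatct
Of the 7 capitalised codons in each stretch, 4 end in G or C in COL18A1 and 3 in COL11A1 and COL3A1. The GC content of the stretches is 77.8%, 63.5% and 69.8%. The full runs hold 30, 338 and 343 triplets, so the 2 fibrillar chains have the long uninterrupted helix and COL18A1 a broken one.

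Other baselines moved the collagen differences without turning most of them. With genes of equal GC content as the baseline, the PEN-FFW median against PEN was 0.38, with 16 of 18 above 0 and 4 at least 1.5-fold higher (5.25% of all genes). These 4 were COL1A1, COL7A1, COL27A1 and COL4A5. A baseline fitted by least squares to GC content, transcript length and abundance together, chosen after the data were seen, left a median of 0.25 with 15 of 18 above 0 and 0 past 1.5-fold (2.4% of all genes). On it COL7A1 stood at 0.52, COL1A1 at 0.51, COL4A5 at 0.45 and COL6A1 at 0.37, while COL2A1 was at -0.38 and COL4A1, COL4A2, COL4A6, COL11A2, COL12A1 and COL21A1 were between -0.02 and 0.08. RNA markers of another kind moved with the same library: the nuclear RNAs MALAT1 (0.61 ± 0.01), NEAT1 (1.08 ± 0.05) and KCNQ1OT1 (1.66 ± 0.04) were higher in PEN-FFW than in PEN. Their part in the collagen result was not tested.

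**Figure D4:**
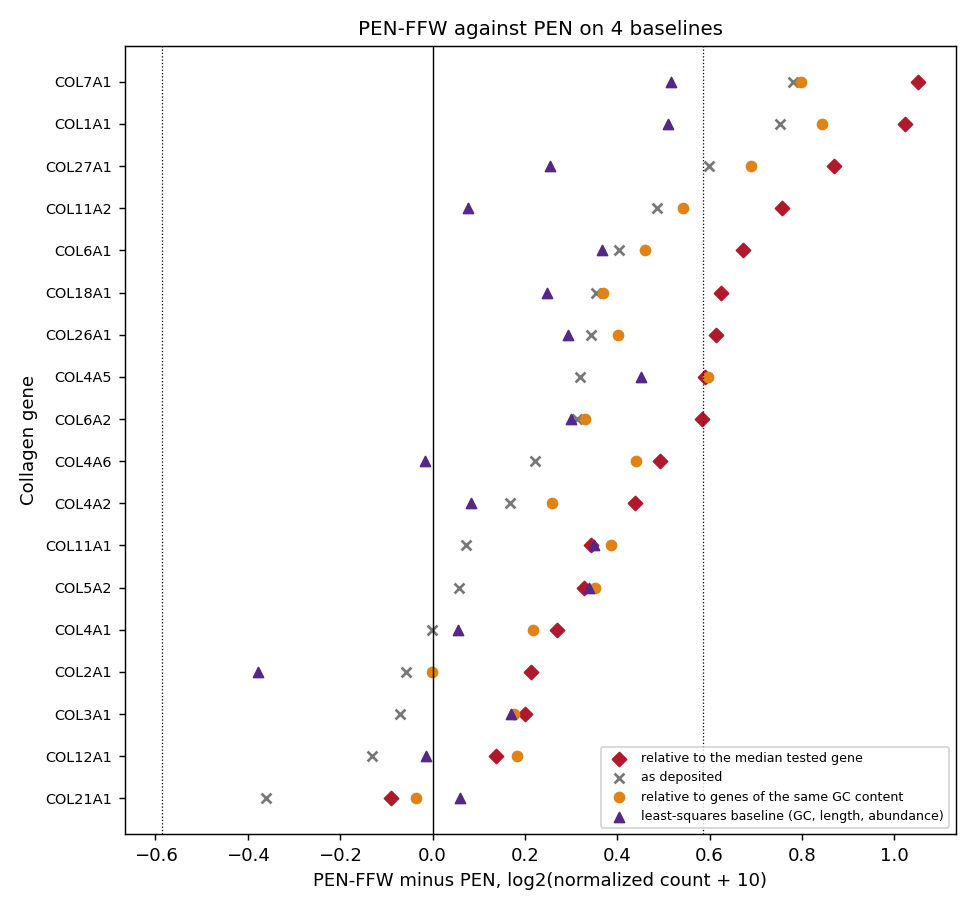
PEN-FFW minus PEN for 18 collagen genes as log2(normalized count + 10), relative to the median gene (diamonds), as deposited (crosses), from genes of equal GC content (circles) and relative to a least-squares baseline in GC content, transcript length and abundance (triangles); dotted lines mark 1.5-fold. COL7A1 runs from 0.52 to 1.05 over the 4 baselines, and COL3A1 from -0.07 to 0.20.

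Genes for collagen folding and modification lay near the median gene. Of 19 such genes 17 had a mean of at least 50 normalized counts. Their median difference was 0.01 in PEN-FFW against PEN, with 10 above the median gene. Past 1.5-fold there were 0 in either direction (7.24% higher and 0.437% lower among all genes). For 17 genes, a count of 0 is near those shares. P4HB, a subunit of the prolyl hydroxylase that stabilises the helix, had 20637, 21674, 20574 and 18242 normalized counts, a PEN-FFW difference of 0.09 ± 0.01. SERPINH1, the collagen chaperone HSP47, had 7850, 7776, 7502 and 5993 (-0.12 ± 0.02). FKBP14, a prolyl isomerase of the endoplasmic reticulum, stood at -0.26 ± 0.05 and CRTAP, of the prolyl 3-hydroxylase complex, at -0.17 ± 0.03. LEPREL2 (0.23 ± 0.06) and the galactosyltransferase GLT25D2 (0.22 ± 0.15) lay above the median gene. The deposited values of SERPINH1, FKBP14 and CRTAP were lowest in PEN-FFW.

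Genes for export, processing and crosslinking had a median of 0.12 in PEN-FFW against PEN, with 10 of 12 above the median gene. Past 1.5-fold there were 0 in either direction, near the shares over all genes (7.24% higher and 0.437% lower). The lysyl oxidase LOX, which crosslinks fibrils, stood at 0.52 ± 0.16 and the procollagen N-proteinase ADAMTS2 at 0.50 ± 0.13. PCOLCE2, an enhancer of procollagen cleavage, was at -0.54 ± 0.11 and its relative PCOLCE at 0.27 ± 0.07. Of 6 collagen receptors 3 were above the median gene and 1 was at least 1.5-fold lower (0.437% of all genes). That was the integrin gene ITGA1, with 1366, 1146, 986 and 750 normalized counts (-0.59 ± 0.06), and its partner chain ITGB1 had 11875, 11038, 9879 and 7803 (-0.34 ± 0.02). ITGA1 and ITGB1 were highest in PEN, then PEN-MUT and PEN-WT, and lowest in PEN-FFW, the reverse of COL1A1 and COL6A1. MRC2, which takes up collagen fragments, was at 0.38 ± 0.03 and the kinase receptor DDR1 at 0.19 ± 0.07. Among 6 collagen-degrading enzymes and their inhibitors, the cathepsin CTSK was past 1.5-fold higher at 0.72 ± 0.17 (7.24% of all genes were). The gelatinase MMP9, with 40.3, 44, 55.9 and 63.7 normalized counts, met the 50-count minimum only through its PEN-WT and PEN-FFW values. Its PEN-FFW difference of 0.82 ± 0.22 is therefore a description and is not counted. TIMP2 was at 0.32 ± 0.05 and MMP14 at 0.10 ± 0.03. As deposited, P4HB, LEPREL2, GLT25D2, DDR1 and MMP14 were lower in the PEN-FFW library than in that of PEN, so their direction depends on the scaling.

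Laminins and other basement membrane proteins, the partners of type IV collagen, had a median of 0.40 in PEN-FFW against PEN, with 9 of 13 above the median gene and 3 at least 1.5-fold higher (7.24% of all genes). LAMA5, the laminin α5 chain, had 1496, 1700, 2063 and 3179 normalized counts, lowest in PEN and highest in PEN-FFW (1.35 ± 0.04). The proteoglycans HSPG2, or perlecan (0.70 ± 0.09), and AGRN, or agrin (0.60 ± 0.04), were the other two, and LAMB2 stood at 0.56 ± 0.02. The markers of stellate cells and fibroblasts had a median of -0.06, with 3 of 8 above the median gene. LUM, which binds collagen fibrils, was at -0.26 ± 0.02 and ACTA2 at -0.26 ± 0.07, while TAGLN was at 0.99 ± 0.15 and PDGFRA at 0.25 ± 0.18 (87.3 normalized counts in PEN and 85.9 in PEN-FFW as deposited). The part of any such cells in the collagen result was not tested.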

How the data were processed

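RNA was measured in 4 SNU398 libraries. The authors deposited log2 values, 1 column per library, matched to samples by the names in the labels. The submitters' processing notes name hg19, STAR 2.4.0i and featureCounts 1.5.0-p1. The annotation, strand setting and normalization are not stated in the notes or labels. Raised to the power of 2, 100% of values above the floor fell on whole multiples of a step particular to the library (tolerance 0.1 read), so they are reads times a factor (0.840 PEN, 1 PEN-MUT, 0.776 PEN-WT, 0.923 PEN-FFW), with products under 5 set to 5.

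Genes with a mean of at least 50 normalized counts (12578, 53.0%) were kept, with a pseudocount of 10. Standard errors follow the Poisson law; ratios of scarce genes carry 95% exact (Clopper-Pearson) intervals. Both cover counting error only. The difference calculation was tested on simulated data. Every collagen gene at the minimum is named. From each other list at most 4 genes at the minimum are named, those farthest from PEN in PEN-FFW, plus SERPINH1 and P4HB. Some cell-type markers below the minimum and genes overlapping COL18A1 are named in addition, outside that rule. Positions, GC content and length come from GENCODE 44 lifted to GRCh37 (20574 current and 1572 older symbols matched, 1564 did not), which may differ from the authors' annotation. RefSeq promoters (GRCh38.p14) matched 32 of 44 genes. Members and lists were chosen with earlier results of these data known. Python 3.11.15, numpy 2.4.6, pandas 2.3.3 and scipy 1.17.1 were used.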

Additional observations from a re-analysis of the deposited data

How the results depend on the processing

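No replicate could be left out, and no paired analysis was possible because each peptide had 1 library. Counts of collagen genes at least 1.5-fold higher in PEN-FFW (8 against PEN, 5 against PEN-MUT, 4 against PEN-WT) became 3, 3 and 1 as deposited, with medians of 0.27, 0.16 and 0.11. At 2-fold they were 2, 3 and 0. With genes of equal GC content as the baseline, the count was 4 against PEN (median 0.38) and 2 against PEN-WT (3.26% of all genes). Against PEN-WT it was also 2 relative to genes of the same abundance (2.57%) and with a pseudocount of 50 (2.99%). With a minimum of 200 (13 genes) it was 2 against PEN-MUT (4.34%) and 1 against PEN-WT (1.84%). Without the minimum (35 genes) it was 13, 13 and 10 (10.7%, 11.5% and 8.47%), and 2 for PEN-WT against each of PEN (1.31%) and PEN-MUT (1.58%). These PEN-FFW counts include COL16A1, at the floor in PEN-MUT and PEN-WT, and COL6A6, at the floor in PEN-WT. The least-squares baseline, chosen after the data were seen, gave 0, 2 and 0 (2.4%, 2.86% and 1.52%) with medians of 0.25, 0.21 and 0.24, and -0.034 for PEN-WT against PEN-MUT. Median-ratio size factors, scaling by total reads, a pseudocount of 1 and the length baseline kept each of these counts within 1.5 times. Depth limits the scarce genes: COL2A1, COL4A6, COL11A2 and COL27A1 have counting errors of 0.15 to 0.21.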
